A study of Drosophila melanogaster with 2 samples.

Results

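The genes described are the mitochondrial ribosomal protein genes of Drosophila melanogaster, taken from the protein-coding genes of the Ensembl BDGP6.54 annotation. Every gene whose symbol begins with mRpL (47 genes, named for the large subunit) or mRpS (26 genes, named for the small subunit) was included. These genes number 73 of 13968 protein-coding genes. They were singled out because several of them carry very strong Sequoia peaks at their starts, so they were chosen by the position and signal of peaks in the conservative peak list, and those values are given as a description with no test. The members were set beside all protein-coding genes and beside other genes of mitochondrial function.

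The gene seq encodes Sequoia, a nuclear protein with zinc fingers that is best known from neurons, where it shapes axons and dendrites. It was mapped by chromatin immunoprecipitation and sequencing (ChIP-seq) in whole embryos of 0 to 24 h from a seq-GFP strain, in which the fusion protein seq-eGFP was pulled down with an anti-GFP antibody from sonicated chromatin. The labels give 2 biological replicates of this 1 group and no other genotype, treatment or stage, so the spread between these 2 libraries is the only replicate error, and all cell types of the embryo are pooled. The values are the authors' peak lists on the dm6 build, each peak with a summit and a signal that ranks it within its list. The conservative list was built by the authors from both libraries with the irreproducible discovery rate (IDR), a measure of how consistently a peak ranks in both, and none of its peaks exceeded an IDR of 0.01. It held 4099 peaks on the chromosome arms, and the replicates' own lists held 4069 and 2675. The depth of the libraries is unknown, and the control library was not analysed here.

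Mitochondria carry their own ribosomes, which translate the few membrane proteins encoded by mitochondrial DNA. These proteins are core parts of the respiratory chain and the ATP synthase. The ribosomal RNAs come from the mitochondrial genome, while every protein of the ribosome is encoded in the nucleus, made in the cytoplasm and imported. Some of these proteins have a counterpart in bacterial ribosomes and others are found in mitochondria and not in bacteria.

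Of the 73 genes, 12 (16.4%, exact 95% interval 8.79 to 27.0) had a conservative summit within 500 bp of a transcription start site (TSS), against 13.8% of all protein-coding genes (1925 of 13968, 13.2 to 14.4). The share of members with a peak was thus near the background, and intervals here cover counting error only. Among genes with 1 TSS, 10 of 67 members had a peak (14.9%, exact 95% interval 7.40 to 25.7), against 9.35% of all such genes. That interval held the 9.35%. The peaks that members had were strong. The 12 strongest member peaks, 1 per gene, had signals between 107 and 1093 with a median of 271, and their median percentile in the conservative list was 88.9. Over all protein-coding genes with a promoter peak the median signal was 141 and the median percentile 62.4. Of the 12 member peaks 4 ranked among the 100 strongest of the list and 6 among the 500 strongest, against 88 and 389 of the 1925 genes.

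**Figure D1:**
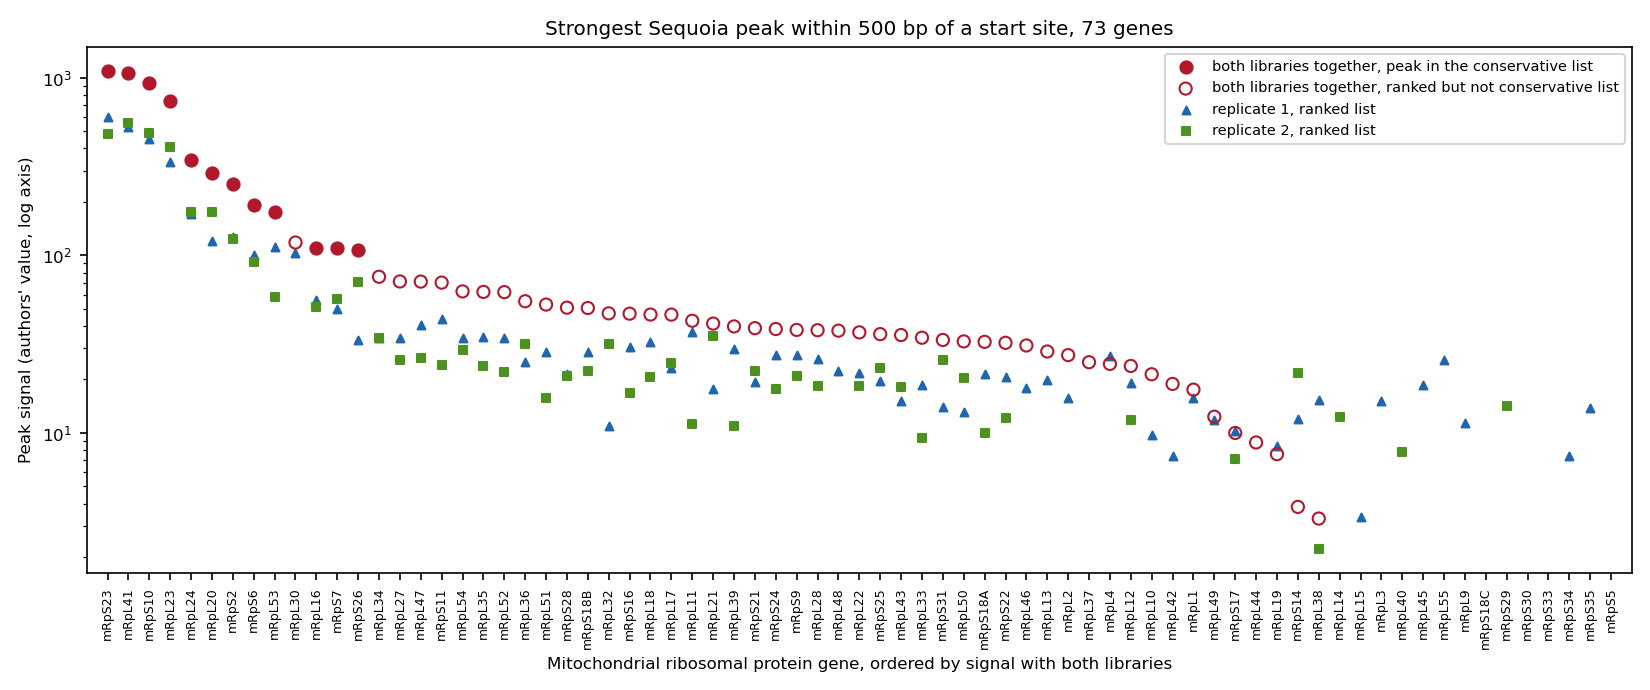
Signal (authors' value, log axis) of the strongest peak within 500 bp of a TSS for each of the 73 genes, ordered by the value from both libraries together. Filled circles are the 12 genes with a conservative peak, open circles genes with a peak in the ranked but not the conservative list, and triangles and squares the ranked lists of replicates 1 and 2; where a marker is missing, that list had no peak. A group of 4 genes stands at 737 to 1093, and the open circles reach 118 at mRpL30.

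The strongest peak belonged to mRpS23, whose small-subunit protein has no bacterial counterpart. The peak (2L:13835318-13835619) had a signal of 1093 and ranked 10 of 4099, with 604 in the list of replicate 1 and 483 in that of replicate 2. Its summit was intergenic, 393 bp upstream of the mRpS23 TSS and 99 bp upstream of the TSS of CenG1A, which encodes a GTPase-activating protein for Arf and lies on the opposite strand. The summit was therefore much nearer to the neighbour. The TSSs of the pair stood 492 bp apart.

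The third peak in strength among these genes was at mRpS10, which encodes a small-subunit protein conserved in bacteria. Its signal was 940 (3R:15229389-15229670, rank 22), with 451 in replicate 1 and 490 in replicate 2. The summit lay almost midway between mRpS10, 130 bp away, and Art3, 127 bp away, an arginine methyltransferase gene on the opposite strand. A single peak thus covered the whole interval of 257 bp between the TSSs of the pair.

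The DNA under these summits is shown because all of it lies between divergent genes and because a run of A and T sits at the summit itself. Sequences are from the RefSeq Release 6 genome (dm6), written 5′ to 3′ on the strand of the mitochondrial ribosomal protein gene, and capitals mark AAATTAA or ACAGTG on either strand. The first is the mRpS23 summit with 50 bases on each side (2L:13835415-13835515, minus strand), and the second is the whole interval from the Art3 TSS to the mRpS10 TSS (3R:15229408-15229665, plus strand, 258 bases, summit at base 128).
mRpS23 summit: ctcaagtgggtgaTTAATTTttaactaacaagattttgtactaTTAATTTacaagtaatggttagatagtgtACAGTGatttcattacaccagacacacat
Art3 to mRpS10: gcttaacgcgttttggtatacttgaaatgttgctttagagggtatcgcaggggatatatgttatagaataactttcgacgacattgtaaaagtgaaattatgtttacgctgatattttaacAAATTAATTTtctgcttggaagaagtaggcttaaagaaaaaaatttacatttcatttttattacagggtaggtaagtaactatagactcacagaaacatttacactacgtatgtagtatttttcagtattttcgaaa

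In the mRpS10 interval the capitals are 2 overlapping copies of AAATTAA, on opposite strands, whose first bases lie 6 and 3 bases before the summit. At mRpS23 the copies began 37 and 7 bases before the summit, and ACAGTG 22 bases after it. The mRpS10 interval held 30.2% G and C.

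At mRpL23, whose bacterial counterpart sits at the exit of the ribosomal tunnel, the peak had a signal of 737 (3L:2373447-2373742, rank 47). Replicate 1 gave 336 and replicate 2 gave 406. This was the member whose strongest summit lay downstream of its nearest TSS, at 87 bp and in an intron of mRpL23. Of the 3 annotated TSSs of mRpL23, the one nearest the summit stood 50 bp from the start of the divergent gene CG9004. The TSS farthest 5′ stood 24 bp from it. These starts lay inside the peak, and its summit was 137 bp from the CG9004 TSS.

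The second strongest member peak was at mRpL41, a large-subunit protein gene with no bacterial counterpart, on arm 2R. The peak (2R:15217605-15217897) had a signal of 1069 and ranked 11, with 529 in replicate 1 and 553 in replicate 2. Its summit stood 134 bp upstream of the mRpL41 TSS. No other protein-coding TSS lay within 500 bp of it, which set mRpL41 apart from the other 11 genes. The nearest divergent coding gene, CG8079, started 762 bp from the mRpL41 TSS, and a noncoding gene on the same strand, lncRNA:CR44463, started 444 bp from the summit.

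After these 4 peaks the signals were much lower. At mRpL24, whose bacterial counterpart acts early in assembly of the large subunit, the signal was 343 (2L:4945434-4945572, rank 281), with 170 in replicate 1 and 175 in replicate 2. The replicates were almost equal. The summit was 158 bp upstream of mRpL24 and 60 bp from betaggt-I, which encodes the beta subunit of a geranylgeranyl transferase.

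At mRpS2, a small-subunit gene with a bacterial counterpart, the signal was 252 (2L:4850368-4850757, rank 522), with 127 in replicate 1 and 124 in replicate 2. The summit lay 144 bp upstream of mRpS2 and 78 bp from Mon1, which encodes part of an exchange factor for Rab7. The pair's TSSs were 222 bp apart.

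The intervals of the last 2 pairs are shown whole, from the TSS of the partner to that of the member, on the minus strand, with AAATTAA and CAGCTG in capitals on either strand. The mRpL24 interval (2L:4945361-4945579) has its summit at base 61 of 219, and the mRpS2 interval (2L:4850419-4850641) at base 79 of 223. Both show a summit nearer to the partner's TSS. In the mRpS2 interval the E-box CAGCTG stands beside the member's TSS; the mRpL24 interval holds none, and for both genes the copy nearest the summit lies just past the partner's TSS, outside the interval.
betaggt-I to mRpL24: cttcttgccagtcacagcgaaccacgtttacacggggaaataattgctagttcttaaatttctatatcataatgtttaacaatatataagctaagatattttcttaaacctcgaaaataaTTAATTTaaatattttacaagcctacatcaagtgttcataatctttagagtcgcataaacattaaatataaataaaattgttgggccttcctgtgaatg
Mon1 to mRpS2: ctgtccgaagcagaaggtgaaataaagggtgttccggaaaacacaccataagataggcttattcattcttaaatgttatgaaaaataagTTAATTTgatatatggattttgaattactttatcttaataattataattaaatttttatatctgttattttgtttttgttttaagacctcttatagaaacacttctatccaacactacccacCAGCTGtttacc

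Both intervals were poor in G and C, at 29.2% for mRpL24 and 28.7% for mRpS2. In the mRpS2 interval the AAATTAA copy began 11 bases after the summit. In the mRpL24 interval the copy began at base 121, more than 50 bases from the summit.

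At mRpL20, a large-subunit gene whose bacterial counterpart is an assembly protein, the signal was 290 (3L:13017960-13018349, rank 392). Replicate 1 gave 120 and replicate 2 gave 175, a log2 ratio of replicate 1 to replicate 2 of -0.55. The summit was 288 bp upstream of mRpL20 and 111 bp from Icmt, which encodes a methyltransferase that acts on prenylated proteins.

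At mRpS6, a small-subunit gene with a bacterial counterpart, the signal was 191 (3L:4364286-4364675, rank 902), with 101.1 in replicate 1 and 91.9 in replicate 2. Here the member held the nearer TSS. The summit was 69 bp upstream of mRpS6, and Cip4, which encodes an F-BAR protein, began 379 bp from it.

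At mRpS7, which encodes a small-subunit protein with a bacterial counterpart, the signal was 110 (2L:10386339-10386728, rank 2277), with 49.7 in replicate 1 and 56.6 in replicate 2 in their ranked lists. The peak was in neither replicate's own thresholded list. The summit was 128 bp upstream of mRpS7 and 272 bp from Cdk1, which encodes the kinase that drives entry into mitosis.

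These 3 summits are shown with 50 bases on each side and with AAATTAA and ACAGTG in capitals on either strand, since all 3 hold AAATTAA although their signals differ. They are 3L:13018105-13018205 (minus strand) for mRpL20, 3L:4364431-4364531 (plus strand) for mRpS6 and 2L:10386484-10386584 (plus strand) for mRpS7.
mRpL20 summit: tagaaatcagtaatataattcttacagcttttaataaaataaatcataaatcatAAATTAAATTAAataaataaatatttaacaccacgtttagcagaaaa
mRpS6 summit: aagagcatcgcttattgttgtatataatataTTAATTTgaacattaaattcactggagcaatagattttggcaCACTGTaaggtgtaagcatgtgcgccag
mRpS7 summit: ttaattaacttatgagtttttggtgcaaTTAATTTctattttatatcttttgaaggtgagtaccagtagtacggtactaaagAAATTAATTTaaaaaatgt

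The mRpL20 window held 16.8% G and C, the lowest of the 12 member windows of this size, and mRpS7 held 23.8%. In mRpL20 2 copies of AAATTAA overlapped at 4 and 9 bases after the summit. In mRpS6 the copy began 19 bases before the summit and ACAGTG 23 bases after it.

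The remaining members with a peak were mRpL53, mRpL16 and mRpS26. mRpL53, a large-subunit gene with no bacterial counterpart, had a signal of 175 (2R:13953909-13954298, rank 1055), with 111 in replicate 1 and 58.1 in replicate 2. Its summit was in an intron of AGO1, 91 bp upstream of mRpL53 and 79 bp from an AGO1 TSS. AGO1 encodes the Argonaute protein that carries microRNAs. CG33155 is annotated with the same TSS as mRpL53 on the same strand, so the peak cannot be given to either of them.

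mRpL16, whose bacterial counterpart lies near the site where transfer RNA enters the large subunit, had a signal of 110 (X:1889905-1890294, rank 2254), with 55.9 in replicate 1 and 51.4 in replicate 2. Its summit fell 156 bp upstream of mRpL16 and 150 bp from trr, which encodes a histone H3 lysine methyltransferase. The summit was close to midway between the pair.

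mRpS26, a small-subunit gene with no bacterial counterpart, had a signal of 107 (3L:18106127-18106516, rank 2359), with 33.5 in replicate 1 and 71.0 in replicate 2. The summit lay 257 bp upstream of mRpS26 and 173 bp from CG13698. An overlapping listed peak with its summit 51 bp upstream had a signal of 5.52, rank 4052.

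The map of summits and start sites shows the arrangement these 12 genes shared. Of the 12 strongest summits, 11 lay upstream of the member's TSS (91.7%, against 82.2% of all genes with a promoter peak). The median offset was -139 bp in members and -137 bp in all genes with a promoter peak. At 11 of the 12 the same summit also lay within 500 bp of the TSS of a divergent protein-coding gene, one on the opposite strand that starts within 1000 bp upstream (91.7%, against 43.3%). All 12 members had such a gene, as did 1081 of the 1925 genes with a promoter peak, and 834 genes shared a summit this way. The 43.3% thus includes genes with no divergent gene to share a summit with. In 4 of the 12 the member's own TSS was the nearest (33.3%, against 77.8%), and at shared divergent promoters it was the nearest in 3 of 11 (27.3%, against 49.5%). A ChIP peak between a pair of starts does not say which gene it belongs to.

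**Figure D2:**
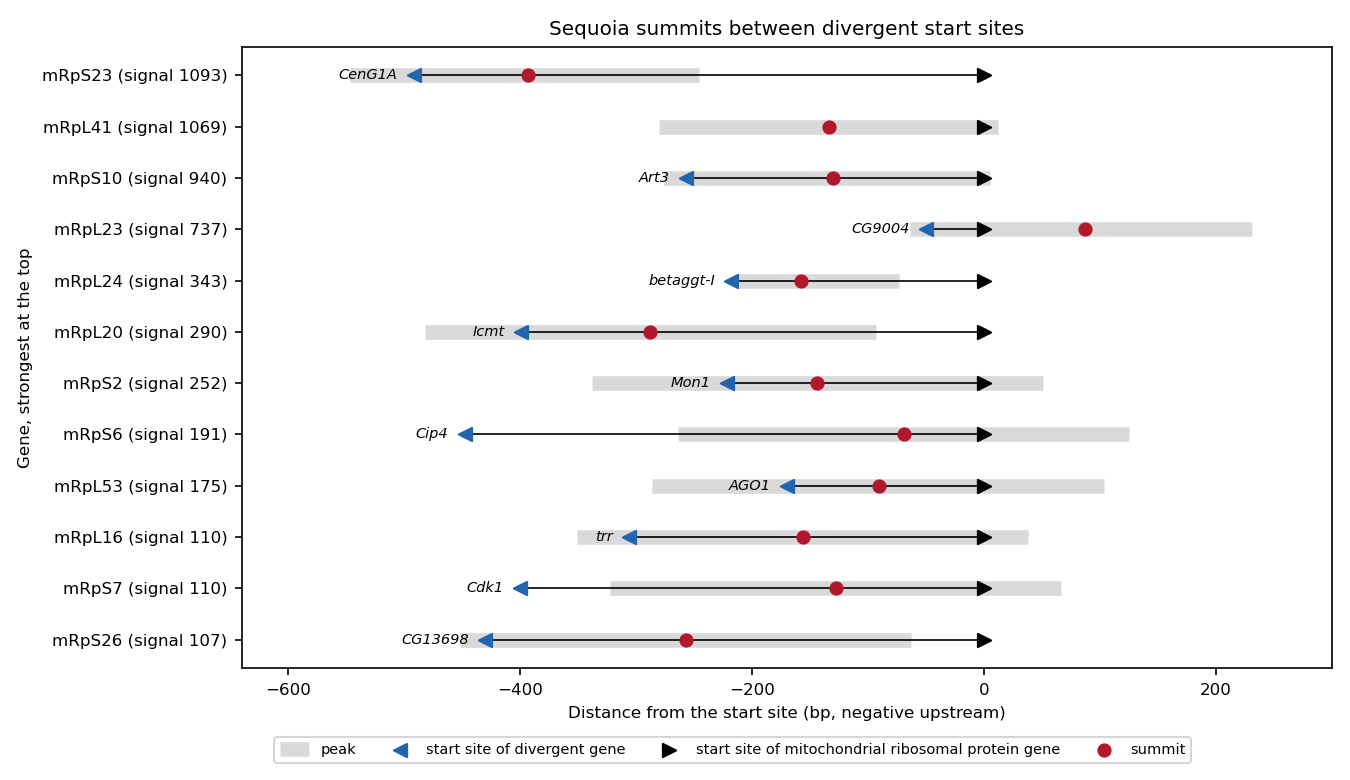
Position of the 12 strongest member peaks relative to the TSS of the mitochondrial ribosomal protein gene (black arrowhead at 0 bp, negative upstream), strongest at the top, with the peak extent in grey, the summit as a red circle and the TSS of the divergent gene as a blue arrowhead. All summits but that of mRpL23 lie upstream, and in 8 of the 12 genes another gene's TSS is nearer; mRpL41 has no divergent coding TSS within 500 bp of its summit.

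Divergent neighbours were common in the whole family. A divergent protein-coding gene started within 1000 bp of 58 of the 73 members (79.5%, median distance 283 bp), against 5052 of all protein-coding genes (36.2%, median 298 bp). Among genes with such a neighbour, 12 of 58 members had a Sequoia promoter peak (20.7%, exact 95% interval 11.2 to 33.4), against 1081 of 5052 genes (21.4%). Among genes without one, 0 of 15 members had a peak (exact 95% interval 0 to 21.8), against 844 of 8916 genes (9.47%). With a divergent neighbour the share of members with a peak was thus near that of all genes, and the members without one are too few to compare. The 15 were mRpL9, mRpL10, mRpL12, mRpL13, mRpL14, mRpL19, mRpL36, mRpL40, mRpL45, mRpL49, mRpS5, mRpS9, mRpS33, mRpS34 and mRpS35.

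**Figure D3:**
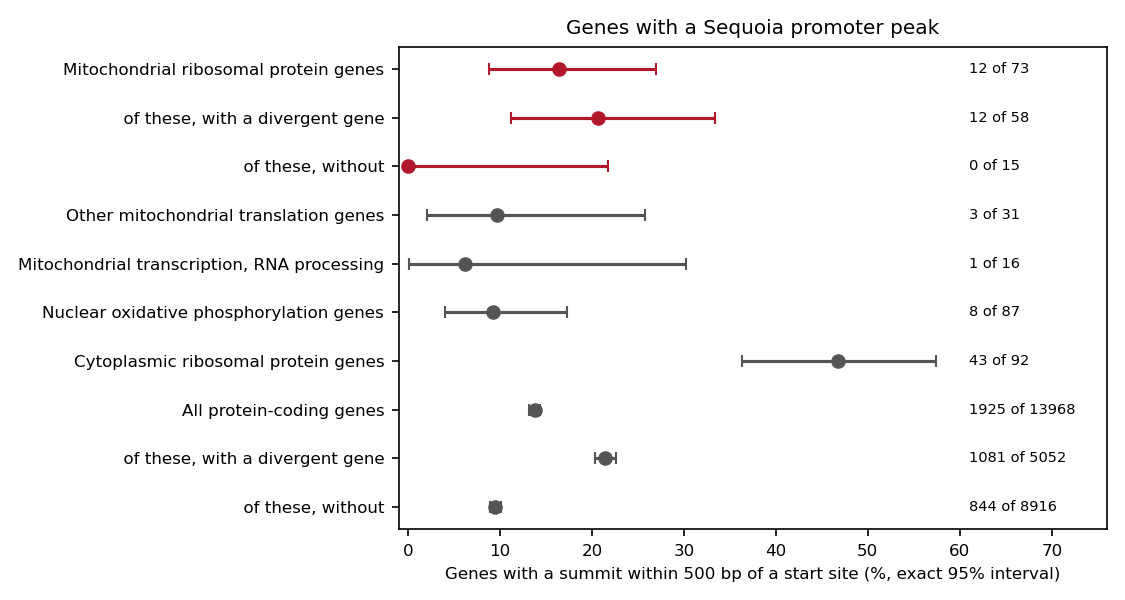
Share of genes with a conservative summit within 500 bp of a TSS (points, %) with exact 95% intervals (bars, counting error only), members in red. Members stand at 16.4% and all protein-coding genes at 13.8%; those with a divergent gene stand at 20.7% and 21.4%.

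Within the family, 6 of 47 mRpL genes (12.8%) and 6 of 26 mRpS genes (23.1%) had a promoter peak. The exact 95% intervals were 4.83 to 25.7 for mRpL and 8.97 to 43.6 for mRpS genes. They overlapped, and both held the 13.8% of all protein-coding genes. These symbols name the large and the small subunit, and membership of a subunit was not checked otherwise. Of proteins with a bacterial counterpart, 8 of 45 genes had a peak (17.8%, exact 95% interval 8 to 32.1), and of mitochondria-specific proteins 4 of 28 (14.3%, 4.03 to 32.7), intervals that also held 13.8%. This was a split made with the nomenclature of the human proteins as a guide, after the member peaks had been seen. In it mRpS18A, mRpS18B and mRpS18C were all counted as having a bacterial counterpart. By arm, 4 of 12 members had a peak on 2L (33.3%, against 14.1% of all protein-coding genes there), 2 of 12 on 2R (16.7%, against 13.5%), 4 of 17 on 3L (23.5%, against 15.2%), 1 of 21 on 3R (4.76%, against 13.4%) and 1 of 11 on X (9.09%, against 13.1%). The exact interval of each of these member shares held the share of all genes on its arm.

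The conservative list keeps peaks that rank alike in both libraries, so the replicate values of the 12 genes are a description and not a check of agreement. Of the 12 genes, 9 had a promoter peak in both replicates' own thresholded lists; mRpL16 and mRpS26 had one in that of replicate 2 and not of replicate 1. In replicate 1's own list 10 members had a promoter peak (13.7%, against 14.3% of all protein-coding genes), and in replicate 2's own list 11 (15.1%, against 10.1%). The log2 ratio of replicate 1 to replicate 2 had a median of -0.05 over the 12 member peaks and 0.21 over the 1462 promoter peaks of protein-coding genes that were matched in both libraries. Replicate 1 was higher at 5 member peaks and replicate 2 at 7, against 946 and 516 of the promoter peaks. The extremes were mRpL53, at 0.93, and mRpS26, at -1.08, and the 4 strongest lay between -0.27 at mRpL23 and 0.32 at mRpS23. No rescaling between libraries is stated, so a ratio is read only against that of other peaks. The member peaks were also stronger, with a median percentile of 88.9 against 61.2 for the promoter peaks. Ratios were not compared at like strength, so the difference cannot be read as particular to the members.

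**Figure D4:**
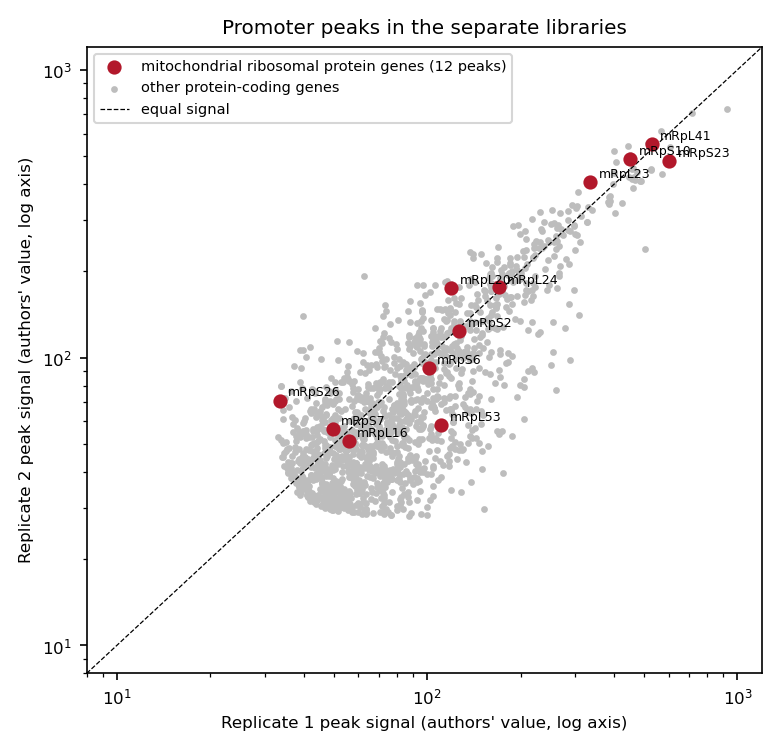
Signal of promoter peaks in replicate 1 (horizontal) and replicate 2 (vertical), authors' values on log axes, with the 12 member peaks in red, other protein-coding promoter peaks in grey and equal signal as a dashed line. mRpS23, mRpL41, mRpS10 and mRpL23 sit at the upper end near the line, and mRpL53 and mRpS26 lie farthest from it among the members.

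In the list from pooled replicates 15 members had a promoter peak (20.5%, against 17.3% of all protein-coding genes). It added mRpL27, mRpL30, mRpL54 and mRpS11, and lacked mRpS7. mRpL30, a large-subunit gene with a bacterial counterpart, was the strongest gene outside the conservative list. Its signal was 118 with both libraries and 104 in replicate 1, and replicate 2 had no ranked peak within 500 bp of its TSS. It thus rested on 1 library.

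Of the 61 members without a conservative promoter peak, 47 (77.0%) had a peak in the authors' ranked list, which also holds weaker peaks that miss the IDR threshold. Their signals ran from 3.30 to 118 with a median of 37.7. Of other protein-coding genes without a conservative promoter peak, 70.5% had one, with a median of 33.8. The next strongest members after mRpL30 were mRpL34 (75.7), mRpL27 (71.3), mRpL47 (71.2) and mRpS11 (70.2), all present in the ranked lists of both replicates. Replicate signals at mRpL34 were 34.2 in replicate 1 and 34.3 in replicate 2. At mRpS11 they were 43.6 in replicate 1 and 24.3 in replicate 2.

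The other members with a ranked peak and no conservative one, of which mRpL54 was also in the pooled list as given above, were mRpL1, mRpL2, mRpL4, mRpL10, mRpL11, mRpL12, mRpL13, mRpL17, mRpL18, mRpL19, mRpL21, mRpL22, mRpL28, mRpL32, mRpL33, mRpL35, mRpL36, mRpL37, mRpL38, mRpL39, mRpL42, mRpL43, mRpL44, mRpL46, mRpL48, mRpL49, mRpL50, mRpL51, mRpL52, mRpL54, mRpS9, mRpS14, mRpS16, mRpS17, mRpS18A, mRpS18B, mRpS21, mRpS22, mRpS24, mRpS25, mRpS28 and mRpS31. The 14 with no peak in that list were mRpL3, mRpL9, mRpL14, mRpL15, mRpL40, mRpL45, mRpL55, mRpS5, mRpS18C, mRpS29, mRpS30, mRpS33, mRpS34 and mRpS35. The window of 500 bp left a clear gap: the farthest summits inside it were those of mRpL20 at 288 bp and mRpS23 at 393 bp, and the nearest outside were those of mRpL35 at 824 bp, with a signal of 84.1, and mRpL34 at 1186 bp.

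For other genes of the mitochondrial gene expression system, the intervals of the shares with a promoter peak held the share of all protein-coding genes. In mitochondrial translation these peaks were weak. Of 31 further genes of mitochondrial translation, 3 had a promoter peak (9.68%, exact 95% interval 2.04 to 25.8, against 13.8% of all protein-coding genes). These were the elongation factor gene mEFTu1 (84.9), the amidotransferase subunit gene GatC (82.0) and the arginyl-tRNA synthetase gene ArgRS-m (81.4), all below the weakest member peak of the 12. The list held tko and bonsai, which encode mitochondrial ribosomal proteins under other symbols, and neither had a promoter peak. It also held 18 genes of tRNA charging, 2 of which had a peak, and 11 of translation factors and membrane insertion, 1 of which did.

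Of 16 genes of mitochondrial transcription and RNA processing, 1 had a peak (6.25%). That was PNPase, which encodes polynucleotide phosphorylase. Its signal of 1061 ranked 12, directly after mRpL41, with 515 in replicate 1 and 556 in replicate 2. Of 87 nuclear genes of oxidative phosphorylation, 8 had a promoter peak (9.20%), led by the complex I genes ND-ASHI (348) and ND-MWFE (238), followed by ND-24 (137), ATPsynCF6 (98.2) and ND-42 (97.0).

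The cytoplasmic ribosomal protein genes, whose products form the ribosomes that make most cell proteins, had more peaks of a lower maximum signal. Of these 92 genes, 43 had a promoter peak (46.7%, exact 95% interval 36.3 to 57.4), while the median signal was 157 and the highest 343, at RpL32. RpL34b (331), RpL7 (275), RpL41 (268) and RpL30 (256) came next. None of them ranked in the top 100, against 4 of the 12 mitochondrial ribosomal protein genes. The pattern of symbols used for that list includes paralogues.

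The promoters of the family shared a sequence feature, found with and without a Sequoia peak. The E-box CAGCTG, which reads the same on both strands, stood in the window from 250 bases before to 50 bases after the TSS in 40 of the 73 genes (54.8%), against 17.6% of all protein-coding genes and 22.0% of those with a divergent neighbour. It was present in 6 of 12 members with a Sequoia peak (50%) and in 34 of 61 without (55.7%). Most copies lay at the TSS itself: 36 of the 45 copies in members (80.0%) began in the last 100 bases of the window, from 50 bases before the TSS onward, against 49.7% of copies in all genes. Counted that way, 35 members (47.9%) and 9.29% of all genes had it, a division chosen after the positions were seen. The median first base was 2 bases after the TSS in members and 51 bases before it in all genes.

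The same E-box was in the promoter windows of 9 of 18 genes of mitochondrial tRNA charging (50%), 5 of 11 of translation factors (45.5%), 8 of 16 of mitochondrial transcription and RNA processing (50%), and in both tko and bonsai. It was in 21 of 87 genes of oxidative phosphorylation (24.1%) and in 9 of 92 cytoplasmic ribosomal protein genes (9.78%), lists that include paralogues. None of the windows of 50 bases on each side of the 12 member summits held it, against 4.63% of those around promoter peaks of protein-coding genes. At that share, 12 windows are too few for the absence to be read as a lack. Where CAGCTG was found from 600 bases before to 200 after the member's TSS, its nearest copy began 79 bases (mRpL24) to 358 bases (mRpS26) from the summit. A match is a description of these letters and not of a bound factor.

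**Figure D5:**
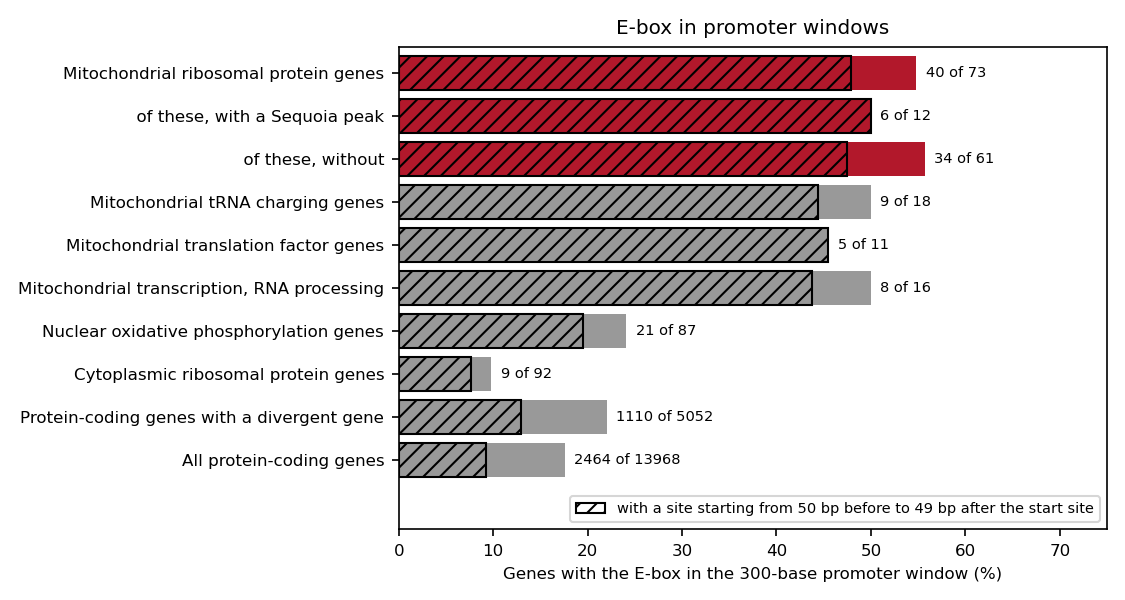
Share of genes (%) with the E-box in the promoter window of 300 bases, as solid bars with counts, and with a copy in the last 100 bases of it, hatched. Members with a Sequoia peak and members without stand at 50% and 55.7%, the other mitochondrial gene expression lists at 45.5% to 50%, and all protein-coding genes at 17.6%.

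Further motifs were sought on both strands of the same windows. The DNA replication-related element TATCGATA was in 15 members (20.5%, against 9.36% of all genes), of which mRpS23, mRpL20 and mRpL16 had a Sequoia peak. Its core ATCGAT, which lies inside it, was in 27 members (37.0%, against 23.3%). The motif of GAGA factor, GAGAGA, was in 5 members (6.85%, against 12.3%) and in none of the 12 with a peak, against 17.5% of all genes with a promoter peak. The Initiator, sought as TCAGTC or TCAGTT, was in 16 members (21.9%, against 35.1%), and TATAAA in 34 (46.6%, against 45.8%). No member summit window held the replication-related element, its core or the motif of GAGA factor, which stood in 1.43%, 4.49% and 7.69% of promoter peak windows. With 12 windows and shares this low, an absence cannot be read as a lack, which also holds for GAGAGA in the 12 promoters. The word ACAGTG was in 13 members' promoter windows (17.8%, against 13.9%), and in the summit windows of 2 of the 12 members, mRpS23 and mRpS6, against 6.12% of promoter peaks.

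The summit windows had a low median content of G and C, with a wide range. The median over the 12 member windows, with 50 bases on each side of the summit, was 27.2% (16.8% to 55.4%), against 34.7% over the promoter peaks of all protein-coding genes. It was 29.7% over shared divergent promoter peaks and 28.7% over the 100 strongest promoter peaks, so the members' value was near that of peaks of like arrangement or strength. The most frequent word of 7 bases in the member windows was AAATTAA, in 7 of 12 (mRpS23, mRpS10, mRpL23, mRpL20, mRpS2, mRpS6 and mRpS7), against 13.1% of promoter peaks. Its extension AAATTAAT was in 5 of 12, against 4.42%. These words were picked because they were the most frequent, so their counts are a description, and windows richer in A and T hold such words more often.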

How the data were processed

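ChIP-seq peak lists of 2 libraries of 1 group were used; reads were not. Per the text records deposited with the samples, the authors made thresholded and ranked IDR lists on dm6 for each replicate, for pooled replicates and for both replicates (conservative), each with 1 control alignment; the thresholded lists had a further input of unstated nature. For the peak caller, aligner and versions, nothing was stated: not given in the sources used here. Signal, as deposited by the authors, is their peak caller's value, with no rescaling stated; the deposited score rises as IDR falls; the deposited -log10 values are the authors' IDR. A further 8 columns per ranked list, which carry no sample names, were left out. Depth is unknown.

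Summits were assigned to TSSs of Ensembl BDGP6.54 (release 115) within 500 bp, counting from 1. Replicate values are those of the overlapping peak (1 bp or more, nearest summit) in each replicate's ranked list. Divergent genes start within 1000 bp on the opposite strand. The 16 motifs were sought on both strands of the RefSeq Release 6 genome. Intervals on shares are exact (Clopper-Pearson) and cover counting error only. No test was run, since there is 1 group and the members and lists were chosen with earlier results of these data known. All 47 hand-listed symbols matched, 4 after the spelling or synonym was corrected to the annotation with the files in view. Every member with a promoter peak was named, with the 5 strongest without one and the 5 strongest of each other list. Assignment and motif search were checked on simulated data with planted answers. Tools were scipy 1.17.1, pandas 2.3.3, numpy 2.4.6, matplotlib 3.10.9 and Python 3.11.15.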

Additional observations from a re-analysis of the deposited data

How the results depend on the processing

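Windows of 200 and 1000 bp, the TSS farthest 5′ in each gene alone and each replicate's own list were tried as alternatives. So were the pooled list and an IDR of at most 0.001. These settings gave 9 to 15 members with a promoter peak, against 12. The share of all protein-coding genes changed too, from 7.95% at an IDR of at most 0.001 to 17.3% in the pooled list, against 13.8%. It was 9.58% with a window of 200 bp, 16.9% with 1000 bp and 11.4% with the TSS farthest 5′. Without replicate 1 it was 10.1%, and without replicate 2 14.3%. A window of 200 bp lost mRpL20 and mRpS23, and lowered shared divergent promoters to 6 (against 11) and members with a ranked but no conservative peak to 30 (against 47). An IDR of at most 0.001 lost mRpL16, mRpS7 and mRpS26, and left 3 oxidative phosphorylation genes (against 8) and 0 other mitochondrial translation genes (against 3). With 1 replicate left out, members with a peak numbered 10 to 11 and their median percentile was 88.4 to 90.1. Shared divergent promoters then numbered 9 to 10, and the median offset was -150 to -141 bp. Cytoplasmic ribosomal protein genes with a peak numbered 34 to 51, oxidative phosphorylation genes 6 to 8 and other mitochondrial translation genes 0 to 2. That 0 was without replicate 1. Members with a peak in the remaining replicate's ranked list and not in its thresholded list numbered 38 to 54. In all, 67 of 85 alternatives stayed within 1.5 times the count or the spread of the value, 18 moved (7 of them motif counts that fell in the summit window) and 0 reversed. The cause was not tested. No paired analysis was possible because there is 1 group. The unknown depth limits what an absent peak shows: it was not detectable here, and need not be absent.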
